A study of Homo sapiens with 6 samples.

Results

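Genes of homologous recombination and of other DNA repair routes were followed in OVCA432, an established human line of serous ovarian cancer cells, exposed to recombinant MFAP5 (microfibrillar associated protein 5). MFAP5 is an extracellular glycoprotein found on microfibrils. The set was a list of 50 genes grouped by function. For each gene the probe set was used that carries its symbol alone in the platform annotation and has the highest mean log2 signal over all 6 arrays. Such a probe set was present for 44 of the 50 genes, among 19775 genes in all, and all 44 were bright enough to be tested, as were 12216 genes in all. ATRIP and PMS2 were carried only by probe sets that also name another gene, and BRCA2, RBBP8, FANCA and FANCD2 were not analysed here.

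The tested cells received 200 ng/mL of recombinant human MFAP5 in serum-free medium for 48 h, and control cells received solvent in the same medium. Both groups had first been kept without serum for 24 h, so every sample came from serum-starved cells of 1 line. There were 3 MFAP5 and 3 control samples, prepared independently and hybridised to 1 Affymetrix U133 Plus 2.0 array each. Values are MAS5 signals on a linear scale, as deposited, and were taken as already scaled to a common target. The trimmed mean of control replicate 1 was 500.1.

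All 10 ovarian epithelial markers stood above the brightest Bacillus control (26.4 to 55.9), which marks background, on every array, with group means from 1618 (MUC16) to 23843 (KRT18) in MFAP5 cells and from 446 (MUC16) to 22578 (KRT18) in control cells. EPCAM, KRT7, MUC16, PAX8 and MSLN were called higher, WFDC2 lower and 4 were not called (limma). The 10 markers had summed signals of 97177 to 106087 on MFAP5 arrays and 83227 to 94773 on control arrays. The 12 stromal, endothelial and blood markers summed to 515 to 701 on MFAP5 arrays and 481 to 558 on control arrays, and none was at 0. Of these, the fibroblast collagens COL1A1 (means of 177 in MFAP5 and 170 in control cells) and COL1A2 (59.0 in MFAP5 and 49.8 in control cells) stood above the Bacillus control on all 6 arrays, COL3A1 and DCN, also of fibroblasts, on none, and the other 8 on 1 to 5. The part of these markers in the repair result was not tested. All 44 repair genes were above the Bacillus control on every array. Log2 signals correlated at 0.984 to 0.988 within groups and 0.967 to 0.971 between them, across probe sets. As a measure of RNA quality, 3' over 5' probe sets of GAPDH had a mean log2 ratio of -0.10 in MFAP5 and -0.13 in control samples, and those of ACTB 0.28 in MFAP5 and 0.30 in control samples (exact permutation test over samples, two-sided, p = 0.5 and 0.6, where 0.1 is the smallest p that 3 against 3 allows). With 3 arrays a group, precision is limited by their number.

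Homologous recombination restores a chromosome broken across both strands from the sister copy, in S and G2 phase. The MRE11, RAD50 and NBN complex recognises the break and starts resection, ATM and ATR signal it to the checkpoint kinases CHEK2 and CHEK1, and BRCA1, PALB2 and BRCA2 bring in the recombinase. The Fanconi proteins unhook crosslinks between strands and hand the break to recombination. End joining instead ligates the ends after the Ku proteins have bound them, excision repair replaces damaged bases or nucleotides, and mismatch repair corrects replication errors. Inherited or acquired loss of BRCA genes is a known feature of high grade serous ovarian cancer, and such tumours are treated with inhibitors of PARP1.

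With MFAP5, repair genes that changed were nearly all lower, and modestly so. Of the 44 genes, 14 fell, 1 rose and 29 were not called in a limma fit across all 27307 probe sets tested (two-sided, Benjamini-Hochberg adjusted p below 0.05). The share that fell was 31.8%, against 15.3% of all genes tested, and the share that rose was 2.27%, against 14.6% of all genes. The listed genes were brighter, with a median signal of 1210 against 781 for all genes tested. Above the 75% quantile of brightness, 17 of 40 listed genes fell and none rose, against 22.6% and 17.2% of all genes. On the brightest probe set of each gene, none changed by 2-fold. The median log2 fold change, MFAP5 minus control, was -0.20 over the list and -0.01 over all genes tested. In 21 genes every MFAP5 signal lay below every control signal, and in 2 genes above. Among all genes tested these patterns held for 23.6% and 22.3%. In bulk samples, fewer cells expressing a gene and less RNA per cell cannot be told apart. The number that fell was 24 after centring the arrays on their medians, which moved the median of all probe sets tested to -0.12 against 0.02 as deposited, and 9 after centring on hybridisation controls. The share of all genes that fell moved with it, to 28.1% and 6.93%.

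**Figure D1:**
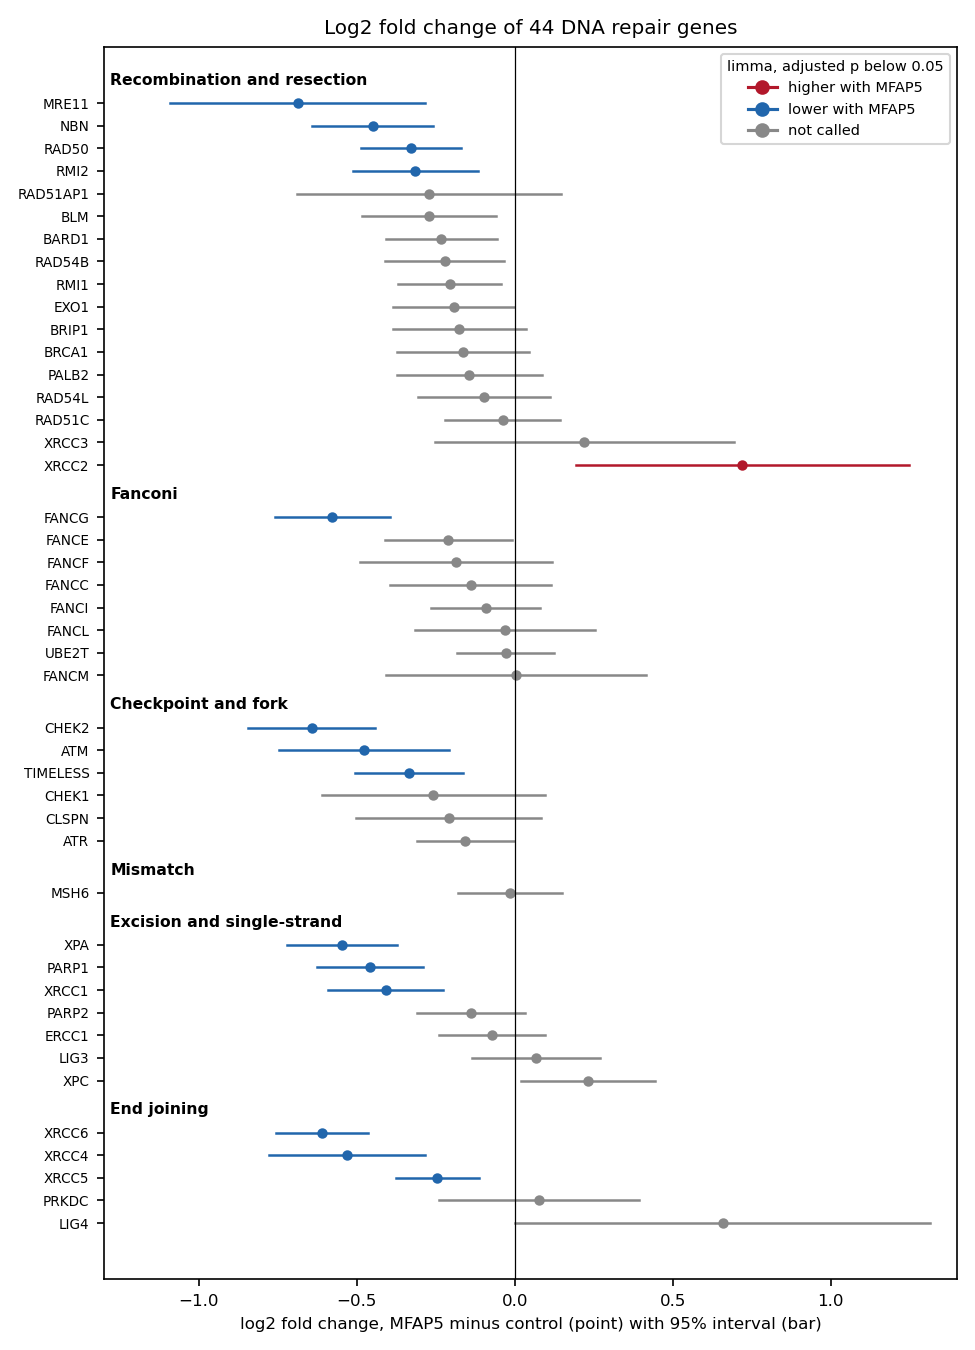
Log2 fold change, MFAP5 minus control, of the 44 repair genes (points) with 95% intervals (bars) from limma, grouped by role and ordered within a role. Points right of 0 are higher with MFAP5. The 14 genes that fell lie between -0.69 and -0.25, and XRCC2 is the 1 gene that rose.

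The genes that fell most were spread over the routes: MRE11, the nuclease of the break-sensing complex, CHEK2, a checkpoint kinase, XRCC6, which encodes Ku70, and FANCG, a subunit of the Fanconi core complex. For 6 genes, NBN, FANCG, CHEK2, PARP1, XPA and XRCC6, the fall was called under all 16 alternative settings. Those settings covered scaling, filter, choice of probe set, fit and the removal of each sample. XRCC1 kept its call in 15 of 16. FANCG, CHEK2, PARP1, XPA, XRCC6 and XRCC1 had 1 tested probe set each. The choice of probe set could therefore not change their log2 fold changes, and of these genes only NBN was exposed to it. The call for XRCC2 held in 4 of the 14 settings that gave it a value.

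Promoter sequence is shown for the 3 genes among the called recombination, Fanconi and checkpoint genes with the largest fall and for the 1 that rose, since members that move together can be read beside the elements their promoters share. Each is the RefSeq window from 250 bases before to 50 bases after the gene's start (GRCh38.p14), printed 5' to 3' on the gene's own strand. Capitals mark the motifs searched on both strands: 4 words bound by E2F factors (TTTGGCGC, TTTCCCGC, TTTCGCGC and TTTGCCGC), the CCAAT box (CCAAT), and the cell cycle homology region of mitotic genes, CHR (TTTGAA). The windows are chr11:94493795-94494094 for MRE11, chr22:28741771-28742070 for CHEK2, chr9:35079893-35080192 for FANCG and chr7:152676092-152676391 for XRCC2, all on the minus strand.
MRE11: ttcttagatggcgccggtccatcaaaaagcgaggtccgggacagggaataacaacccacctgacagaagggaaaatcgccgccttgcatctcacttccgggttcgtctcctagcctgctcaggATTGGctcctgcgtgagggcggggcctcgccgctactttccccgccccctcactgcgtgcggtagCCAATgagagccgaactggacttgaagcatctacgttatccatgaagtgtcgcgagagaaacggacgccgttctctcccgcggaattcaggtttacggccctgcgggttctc
CHEK2: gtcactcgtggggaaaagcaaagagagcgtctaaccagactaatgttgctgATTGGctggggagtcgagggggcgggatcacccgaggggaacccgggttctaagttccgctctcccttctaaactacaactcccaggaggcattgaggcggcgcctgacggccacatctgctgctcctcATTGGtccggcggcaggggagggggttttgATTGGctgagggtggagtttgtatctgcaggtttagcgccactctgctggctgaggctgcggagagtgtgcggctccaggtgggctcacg
FANCG: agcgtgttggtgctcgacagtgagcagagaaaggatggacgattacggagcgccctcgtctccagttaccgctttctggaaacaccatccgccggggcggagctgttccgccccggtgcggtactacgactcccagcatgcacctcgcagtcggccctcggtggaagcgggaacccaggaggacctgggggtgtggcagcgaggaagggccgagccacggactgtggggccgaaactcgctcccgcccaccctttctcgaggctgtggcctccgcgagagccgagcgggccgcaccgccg
XRCC2: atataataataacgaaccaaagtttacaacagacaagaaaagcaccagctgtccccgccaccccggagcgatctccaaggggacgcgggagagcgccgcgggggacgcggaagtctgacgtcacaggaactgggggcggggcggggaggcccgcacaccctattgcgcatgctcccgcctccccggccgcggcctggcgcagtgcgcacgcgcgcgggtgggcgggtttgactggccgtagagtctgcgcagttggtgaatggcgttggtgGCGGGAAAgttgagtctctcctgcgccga

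The MRE11 window held 2 CCAAT boxes and the CHEK2 window 3, without overlap. The XRCC2 window held 1 E2F word, and the FANCG window held none of the words. A match is a description of the letters, not a binding site. A window was listed for 38 of the 44 tested genes, and the first listed was used for the 11 genes with more than 1. Of the 38 windows, 7 held an E2F word (18.4%), 20 a CCAAT box (52.6%) and 5 a CHR word (13.2%). Among all 35093 promoter windows the shares were 3.32% for E2F words, 34.6% for CCAAT and 15.2% for CHR. That set is unlike the 38, since it holds every distinct window of a gene and genes that were not tested. Of 30 replication genes, 56.7% held an E2F word, and of 25 mitotic genes, 64% held a CHR word. Among the repair genes, the median log2 fold change was -0.14 in the 7 with an E2F word and -0.21 in the 31 without, and 1 and 10 of them fell. It was -0.23 in the 20 with a CCAAT box and -0.15 in the 18 without, of which 7 and 4 fell. It was -0.18 in the 5 with a CHR word and -0.19 in the 33 without, of which 2 and 9 fell. These are descriptions with no test.

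All 3 genes of the break-sensing complex fell on their brightest probe sets. MRE11 had signals of 1350, 1219 and 1451 on the MFAP5 arrays and of 2648, 1504 and 2502 on the control arrays. Control replicate 2 lay close to the MFAP5 samples and the other controls well above them, and the groups did not overlap. The log2 fold change of MRE11 was -0.69 ± 0.18 (SE, n = 3 each, limma adjusted p = 0.0201), or 1.61-fold lower. Its other tested probe set was not called (log2 fold change 0.17). The call was lost without MFAP5 replicate 2 (limma adjusted p = 0.0749), without control replicate 1 (0.0751) or 3 (0.0609), without an intensity trend (0.0827) and with the mean of its probe sets (0.26).

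NBN, the subunit that recruits ATM, had signals of 3479, 3655 and 3272 with MFAP5, against 5143, 4927 and 4173 in control cells. All MFAP5 samples were lower than all controls, and NBN was 1.36-fold lower (log2 fold change -0.45 ± 0.09 SE, limma adjusted p = 0.00409). NBN had 3 further tested probe sets, of which 2 were also called lower and 1 was not, at a log2 fold change of -0.50. RAD50, the ATPase that tethers the ends, had 1232, 1249 and 1223 with MFAP5, against 1557, 1490 and 1603 in control cells. The MFAP5 samples of RAD50 were tightly grouped below the controls, at 1.25-fold lower (limma adjusted p = 0.00805). Its other 2 probe sets were not called (log2 fold changes 0.03 and 0.40), and the mean of the 3 gave 0.03 (limma adjusted p = 0.849). The RAD50 call was also lost with centring on hybridisation controls (0.164).

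The checkpoint genes were all lower in sign, and 3 of 6 fell. Of all 12216 genes tested, 6245 were lower in sign and 15.3% fell. CHEK2, which passes the signal of ATM to p53 and the cell cycle, had 813, 695 and 715 with MFAP5, against 1191, 1168 and 1105 in control cells. The groups were far apart, and CHEK2 was 1.56-fold lower (log2 fold change -0.64 ± 0.09 SE, n = 3 each, limma adjusted p = 0.000708). CHEK1, the corresponding kinase downstream of ATR, had 579, 803 and 734 with MFAP5 and 704, 798 and 1038 in control cells. These groups overlapped, and CHEK1 was not called (log2 fold change -0.26, 95% interval -0.61 to 0.10, limma adjusted p = 0.268). Another of the 4 CHEK1 probe sets was lower, at -0.64 ± 0.17 (limma adjusted p = 0.0191), while the remaining 2 had log2 fold changes of -0.05 and -0.04.

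ATM, the kinase that responds to double-ended breaks, had 766, 833 and 833 with MFAP5, against 1223, 1270 and 924 in control cells. Control replicate 3 was nearest to the MFAP5 samples, without overlap, and ATM was 1.39-fold lower (limma adjusted p = 0.0164). That probe set is of the type that may share probes with other transcripts (suffix _x_at). The next brightest ATM probe set had a log2 fold change of 0.23 and the third -0.11, neither called, so the direction for ATM turned with the probe set (limma adjusted p = 0.189 for the next brightest). The call was also lost with the mean of its probe sets (0.306), without an intensity trend (0.0595) and without control replicate 1 (0.0651) or 2 (0.0674).

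ATR, the kinase that responds to single-stranded DNA at forks, had 1539, 1596 and 1591 with MFAP5 and 1705, 1736 and 1827 in control cells. The groups did not overlap, but the difference was small and not called (log2 fold change -0.16, 95% interval -0.31 to -0.0027, limma adjusted p = 0.128). TIMELESS, of the fork protection complex, had 1552, 1394 and 1373 with MFAP5, against 1859, 1751 and 1827 in control cells. TIMELESS was 1.26-fold lower without overlap (limma adjusted p = 0.0103), a call lost without MFAP5 replicate 2 (0.0503), with the mean of its 2 probe sets (0.375) and with centring on hybridisation controls (0.147). CLSPN, which encodes claspin, the adaptor through which ATR activates CHEK1, was not called (-0.21 ± 0.13 SE, limma adjusted p = 0.281).

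**Figure D2:**
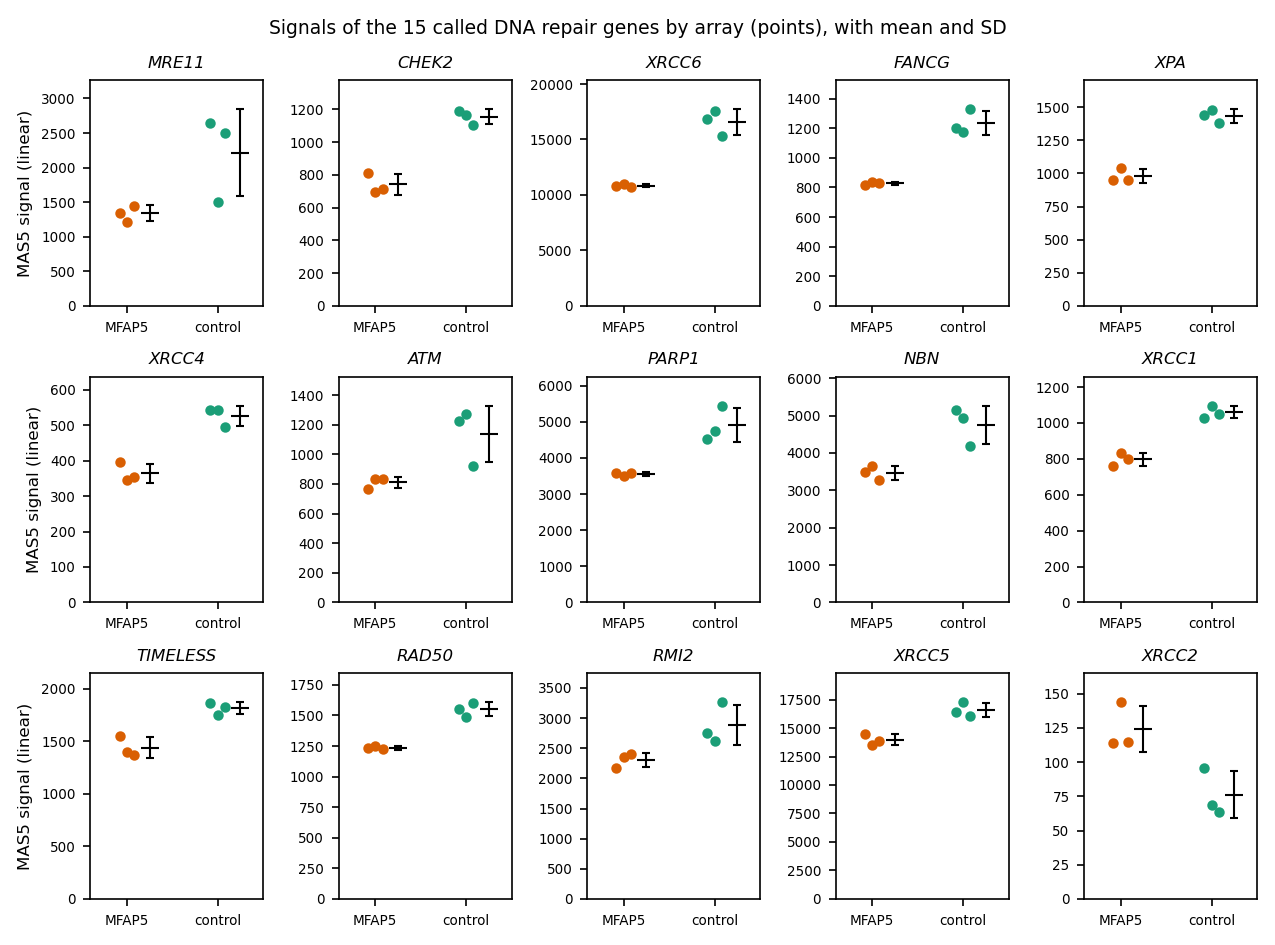
MAS5 signal (linear axis from 0) of the 15 called repair genes on each MFAP5 and control array (points), with the mean and SD of the 3 arrays (bars). In all 15 genes the MFAP5 and control points do not overlap, and in MRE11 and ATM 1 control array lies near the MFAP5 points.

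For BRCA1 and its partners BARD1, PALB2 and BRIP1, differences on the brightest probe sets were small. BRCA1 had signals of 1368, 1669 and 1484 with MFAP5 and 1627, 1589 and 1838 in control cells. The groups overlapped, and BRCA1 was not called (log2 fold change -0.16, 95% interval -0.37 to 0.05, limma adjusted p = 0.238). Its partners BARD1, PALB2 and BRIP1 had log2 fold changes of -0.23, -0.14 and -0.18, and none was called (limma adjusted p = 0.0558, 0.346 and 0.207). For BARD1 the groups did not overlap, but the mean of its 3 probe sets had a log2 fold change of 0.06.

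RAD51C, XRCC2 and XRCC3 encode paralogs of the recombinase. RAD51C was not called on its brightest probe set (-0.04 ± 0.08 SE), while the other had 627, 618 and 629 with MFAP5, against 906, 923 and 880 in control cells. On that second probe set the groups were clearly apart and RAD51C was 1.44-fold lower (limma adjusted p = 0.00131). XRCC2 had 114, 144 and 115 with MFAP5, against 95.8, 68.9 and 63.6 in control cells. Its MFAP5 signals were all higher, and XRCC2 rose 1.65-fold (log2 fold change 0.72 ± 0.24 SE, limma adjusted p = 0.0487). It was measured by 1 probe set, of the _x_at type, so XRCC2 had no value once that type was left out.

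The XRCC2 call was lost in 10 of 14 alternatives, which included quantile normalization (limma adjusted p = 0.09), no filter (0.103) and removal of any single sample other than control replicate 1 (0.0745 to 0.165). XRCC2 was among 4 genes with a mean signal under 200, beside XRCC3, FANCM and LIG4. All 4 had log2 fold changes above 0, as did 3 of the 40 others. XRCC3 was not called (0.22 ± 0.21 SE, limma adjusted p = 0.489).

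RAD51AP1, RAD54L and RAD54B, which help strand invasion, were not called, with log2 fold changes of -0.27, -0.10 and -0.22. For RAD54B the groups did not overlap (limma adjusted p = 0.0842), whereas RAD51AP1 had 959, 1399 and 1498 with MFAP5 and 1392, 1277 and 1986 in control cells, with wide overlap. BLM, RMI1 and RMI2 belong to the complex that dissolves recombination intermediates. RMI2 had 2173, 2347 and 2402 with MFAP5, against 2756, 2626 and 3259 in control cells. The groups did not overlap and RMI2 was 1.24-fold lower (limma adjusted p = 0.0269). Its call was lost without MFAP5 replicate 1 (0.0763) or 2 (0.0704) or control replicate 3 (0.0561), without an intensity trend (0.0948) and with centring on hybridisation controls (0.144). BLM and RMI1 showed no overlap either, but missed the threshold (-0.27 and -0.21, limma adjusted p = 0.0631 and 0.0668). The exonuclease EXO1 had a log2 fold change of -0.19 (limma adjusted p = 0.131).

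Of the 8 Fanconi genes measured, 1 fell, 7 were not called and none rose (limma; 2 of the 8 had an unadjusted p below 0.05). The share that fell, 12.5%, was near the 15.3% of all genes tested. FANCG, which holds the core complex together with FANCA, had 817, 836 and 829 with MFAP5, against 1205, 1176 and 1327 in control cells. The MFAP5 samples were tightly grouped below the controls, and FANCG was 1.49-fold lower (log2 fold change -0.58 ± 0.08 SE, n = 3 each, limma adjusted p = 0.000747). The other core genes FANCC, FANCE and FANCF had -0.14, -0.21 and -0.19, and the translocase FANCM had 0.0034. UBE2T and FANCL, the conjugating enzyme and ligase that ubiquitinate the FANCD2 and FANCI pair, had -0.03 each, with 95% intervals of -0.18 to 0.12 and -0.32 to 0.25.

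FANCI depended on the probe set. Its brightest probe set had 2394, 2464 and 2643 with MFAP5 and 2635, 2476 and 2890 in control cells, and a second gave a log2 fold change of 0.02. The dimmest of the 3 had 805, 672 and 677 with MFAP5, against 1893, 1601 and 1608 in control cells. The groups overlapped on the first and were far apart on the dimmest, which was 2.37-fold lower (limma adjusted p = 2.56e-05), the largest change among all 83 tested probe sets of the list. The annotation gives all 3 to FANCI, and which transcripts each detects was not tested.

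In the end-joining route, both Ku subunits fell. XRCC6 had signals of 10792, 10963 and 10728 with MFAP5, against 16803, 17560 and 15292 in control cells. The MFAP5 samples lay far below the controls, and XRCC6 was 1.53-fold lower (log2 fold change -0.61 ± 0.06 SE, n = 3 each, limma adjusted p = 0.000127), the smallest adjusted p of the 44 genes. XRCC5, which encodes Ku80, had 14507, 13532 and 13901 with MFAP5, against 16378, 17244 and 16084 in control cells. It was 1.19-fold lower without overlap (limma adjusted p = 0.0131), and its second probe set had a log2 fold change of 0.01. The XRCC5 call was lost with the mean of both (0.212), without an intensity trend (0.0787), without MFAP5 replicate 2 (0.0769) or control replicate 2 (0.0575), and with centring on hybridisation controls (0.128).

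XRCC4, the scaffold of the ligation step, had 395, 346 and 352 with MFAP5, against 542, 543 and 495 in control cells. It was 1.44-fold lower without overlap (limma adjusted p = 0.0064), on a probe set of the _x_at type. Its other probe set was not called (log2 fold change 0.18), and the mean of both was not called either (limma adjusted p = 0.392). LIG4, the ligase bound by XRCC4, had 156, 149 and 79.7 with MFAP5 and 63.7, 94.7 and 78.0 in control cells, which overlapped (limma adjusted p = 0.133). Its other probe set had 121, 145 and 109 with MFAP5, against 60.2, 60.6 and 59.2 in control cells, and was 2.07-fold higher (limma adjusted p = 0.00666). PRKDC, the kinase recruited by Ku, was not called (0.08, 95% interval -0.24 to 0.39).

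In excision and single-strand break repair, 3 of 7 genes fell, where 15.3% of all genes tested did. PARP1, the enzyme that marks strand breaks with poly(ADP-ribose), had 3593, 3502 and 3593 with MFAP5, against 4538, 4747 and 5441 in control cells. The MFAP5 samples were nearly equal and below every control, at 1.37-fold lower (log2 fold change -0.46 ± 0.08 SE, n = 3 each, limma adjusted p = 0.00179). XRCC1, the scaffold that PARP1 recruits, had 762, 835 and 799 with MFAP5, against 1030, 1095 and 1053 in control cells. XRCC1 was 1.33-fold lower without overlap (limma adjusted p = 0.00525), a call lost with centring on hybridisation controls (0.092).

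XPA, which verifies damage in nucleotide excision repair, had 953, 1041 and 951 with MFAP5, against 1439, 1481 and 1382 in control cells. The groups were clearly apart, at 1.46-fold lower (limma adjusted p = 0.000787). XPC, the damage sensor of the same route, had 1103, 1138 and 1028 with MFAP5 and 1018, 941 and 831 in control cells. Its MFAP5 signals all lay above the controls, but the difference was not called (log2 fold change 0.23, limma adjusted p = 0.105). ERCC1, a subunit of the nuclease that cuts beside the damage, had -0.07 (95% interval -0.24 to 0.10).

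PARP2, a relative of PARP1, had -0.14 and LIG3, the ligase bound by XRCC1, 0.07 on their brightest probe sets, and neither was called. For PARP2 1 of 2 other probe sets was lower (-0.25, limma adjusted p = 0.0335), and for LIG3 1 of 4 others was (-0.42, limma adjusted p = 0.0378). MSH6, the mismatch sensor and the 1 mismatch gene of the list measured, had 7341, 6659 and 6774 with MFAP5 and 7577, 6964 and 6473 in control cells. The groups overlapped widely (log2 fold change -0.01, 95% interval -0.18 to 0.15, limma adjusted p = 0.907).

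**Figure D3:**
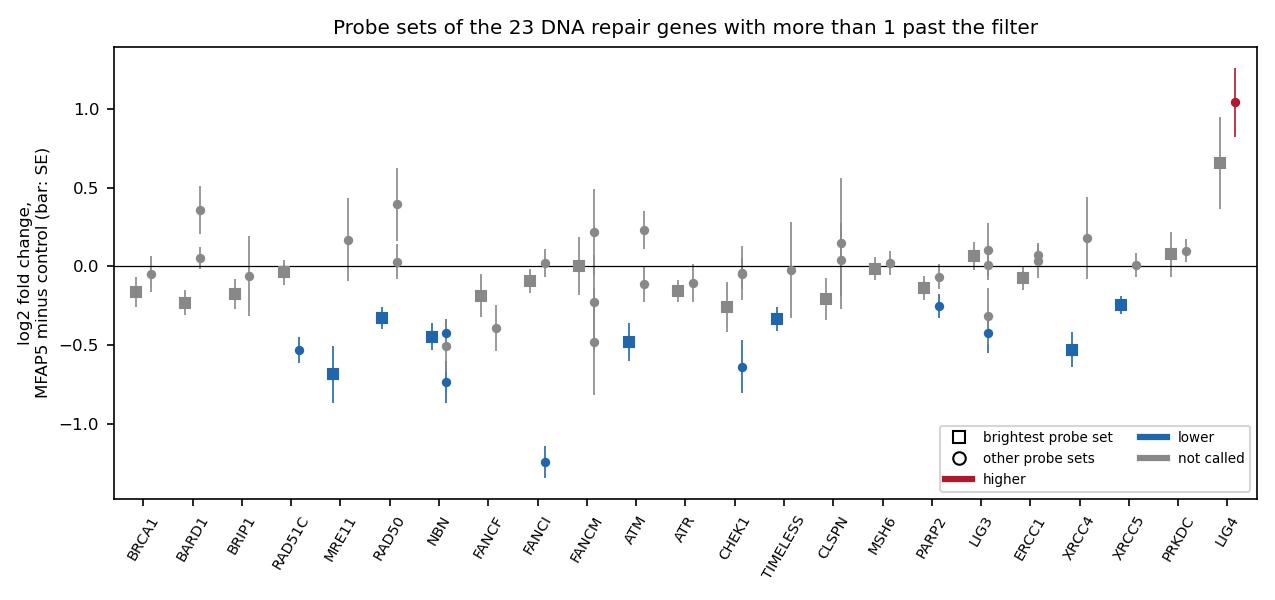
Log2 fold change, MFAP5 minus control, of every tested probe set of the 23 repair genes that have more than 1 (squares: the brightest, which stands for the gene; circles: the others; bars: SE). Colours show the limma call. No gene has calls in opposite directions, FANCI has 1 probe set at -1.24 beside 2 near 0, and the called LIG4 probe set is at 1.05.

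Of the 23 genes with more than 1 tested probe set, 13 had probe sets that differed in call and 10 had none called. The 44 genes had 83 probe sets past the filter, of which 21 were lower and 2 higher. Of the 15 called genes, 8 had a single such probe set, and each of the other 7 (MRE11, RAD50, NBN, ATM, TIMELESS, XRCC4 and XRCC5) had at least 1 that was not called, which for NBN had a log2 fold change of -0.50 beside -0.45 for the brightest. Of the 29 genes not called, 5 (RAD51C, FANCI, CHEK1, PARP2 and LIG3) had a probe set that was lower and 1 (LIG4) had one that was higher. No gene had calls in both directions. Of the 44 probe sets that stood for their gene, 14 were lower and 1 higher. Of the 39 that did not, 7 were lower and 1 higher, with a median log2 fold change of -0.02. Among all genes tested, on the brightest probe set of each, 15.3% fell and 14.6% rose.

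The recombination and Fanconi genes were then set beside the mismatch, excision and end-joining genes. Of 25 recombination and Fanconi genes measured, 5 fell (20%), 1 rose and 19 were not called, where 15.3% of all genes tested fell and 14.6% rose. Of 13 mismatch, excision and end-joining genes, 6 fell (46.2%), 7 were not called and none rose (limma; XPC and LIG4 had an unadjusted p below 0.05 with a positive log2 fold change). The median log2 fold changes were close, at -0.19 for recombination and Fanconi and -0.14 for the other arm. The difference of the medians, recombination and Fanconi minus the other arm, was -0.05. Taken from the array levels of the 2 arms instead, MFAP5 minus control, it was 0.055, with an SD of 0.11 between arrays of a group, so its sign was not settled. Without control replicate 3, the difference of the median log2 fold changes was 0.07, in place of -0.05. Without MFAP5 replicate 2 or control replicate 3, the number of recombination and Fanconi genes that fell was 3 of 25. The share of all genes that fell was 10.1% without MFAP5 replicate 2 and 15.1% without control replicate 3. The 2 arms were not separated by a test, because genes of an arm are not replicates.

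Intervals bound the changes that were not called, on the brightest probe set of each gene. They do not cover the other probe sets that were called, of RAD51C, FANCI, CHEK1, PARP2, LIG3 and LIG4. That of FANCI was 2.37-fold lower. For 25 of the 29 genes not called, the 95% interval of the log2 fold change lay within 1.5-fold in either direction. The exceptions were RAD51AP1, XRCC3, CHEK1 and LIG4, and LIG4 was the 1 gene whose interval reached 2-fold. All 7 uncalled Fanconi genes were inside 1.5-fold on their brightest probe sets.

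**Figure D4:**
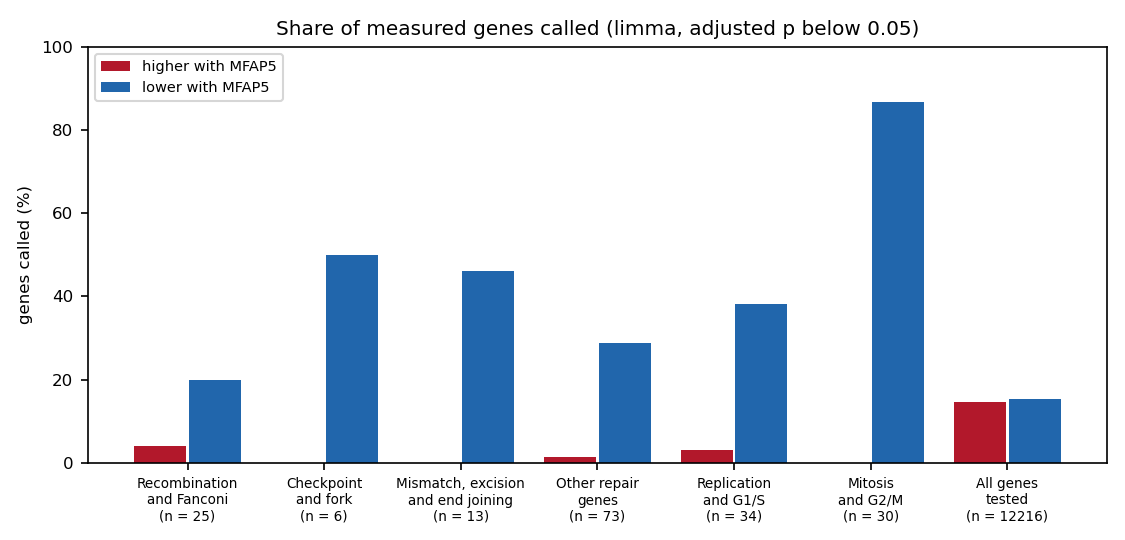
Share of measured genes called higher or lower with MFAP5 (limma, adjusted p below 0.05; vertical axis in percent from 0) for the arms of the repair list, other repair genes, the cell cycle lists and all genes tested. Lower calls reach 20% in recombination and Fanconi genes, 46.2% in the mismatch, excision and end-joining genes, 86.7% in mitotic genes and 15.3% in all genes.

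Repair genes outside the list were also called lower more often than higher. Of 73 measured among 80 other repair genes, 21 fell (28.8%, against 15.3% of all genes tested) and 1 rose (1.37%, against 14.6%). The other 51 were not called, and the median log2 fold change of the 73 was -0.14. The largest falls were in base excision: NTHL1, a glycosylase for oxidised pyrimidines, had 507, 504 and 483 with MFAP5, against 1029, 1043 and 939 in control cells. NTHL1 was thus 2.01-fold lower with groups far apart (limma adjusted p = 4.13e-05). NEIL3, a related glycosylase, was 1.72-fold lower (limma adjusted p = 0.00108). TIPIN, the partner of TIMELESS in the fork protection complex, was 1.52-fold lower (limma adjusted p = 0.000386), and RAD18, a ubiquitin ligase of damage tolerance, 1.48-fold lower (limma adjusted p = 0.0118). The gene that rose was USP1, which removes ubiquitin from FANCD2 (1.16-fold, limma adjusted p = 0.0474). Without MFAP5 replicate 2, 13 of the 73 fell, where 10.1% of all genes did.

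Many repair genes are known to be transcribed with the cell cycle, and cell cycle genes were lower in the same samples. Of 34 genes of replication and G1/S, 13 were called lower (38.2%, against 15.3% of all genes tested) and 1 higher (2.94%, against 14.6%). The other 20 were not called, and the median log2 fold change of the 34 was -0.16. ORC1, of the origin recognition complex, was 1.58-fold lower and PRIM1, the DNA primase, 1.42-fold lower (limma adjusted p = 0.00643 and 0.000541). RFC2, of the clamp loader, was 1.32-fold lower (limma adjusted p = 0.00823), and cyclin E1, CCNE1, was the gene that rose, 1.39-fold (limma adjusted p = 0.0107). Summed signals of this list were 108738 to 109586 on MFAP5 arrays and 121511 to 124739 on control arrays.

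Of 30 genes of mitosis and G2/M, 26 were called lower (86.7%, against 15.3% of all genes tested). All 30 had a log2 fold change below 0, and their median was -0.66. AURKB, HMMR and KIF20A were each over 2-fold lower (2.32-fold, 2.09-fold and 2.07-fold; limma adjusted p = 4.11e-06, 8.44e-06 and 9.34e-06), and CDC20 was 1.93-fold lower (limma adjusted p = 0.000201). The summed signals were 94400 to 94905 on MFAP5 arrays and 144779 to 148196 on control arrays. No gene of either cell cycle list was at 0 on any array. The part of these lists in the repair result was not tested.

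**Figure D5:**
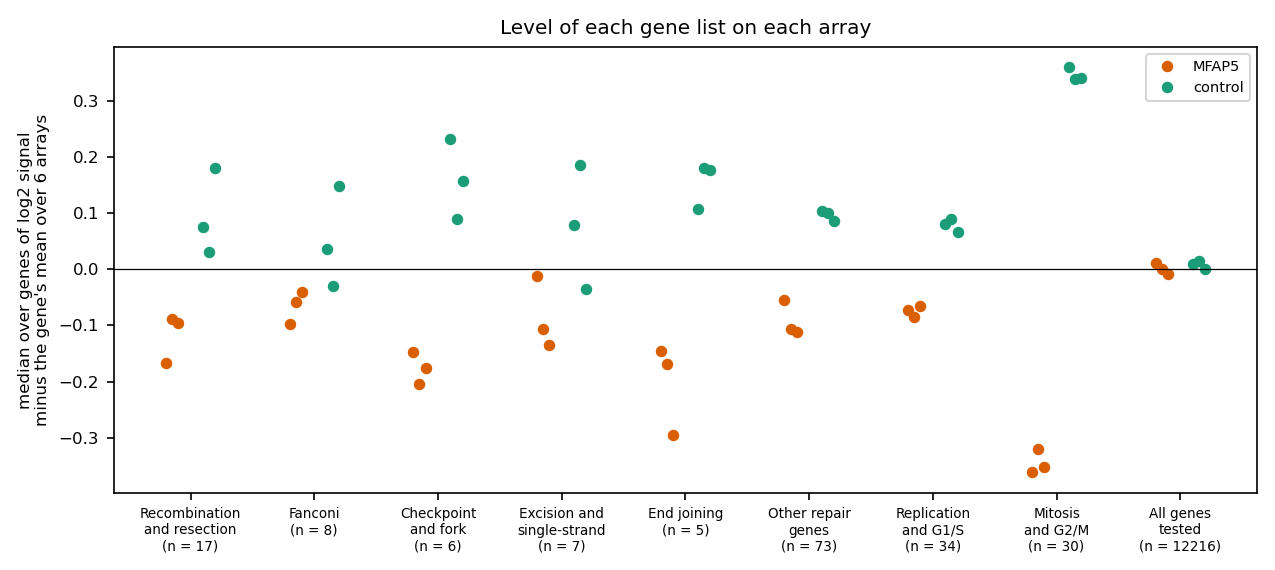
Level of each gene list on each of the 6 arrays, as the median over its genes of the log2 signal minus the gene's own mean over all arrays (n is the number of genes). The 3 MFAP5 arrays lie below the 3 control arrays in every list drawn but the excision genes and all genes tested, and mitotic genes run from -0.36 to -0.32 with MFAP5 and from 0.34 to 0.36 in control cells.

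Array by array, the repair list followed its counts. The median deviation over the 44 genes was -0.14, -0.09 and -0.10 on the MFAP5 arrays and 0.09, 0.08 and 0.16 on the control arrays. For the recombination genes it was -0.17, -0.09 and -0.10 with MFAP5, against 0.07, 0.03 and 0.18 in control cells. For the Fanconi genes it was -0.10, -0.06 and -0.04 with MFAP5, against 0.04, -0.03 and 0.15 in control cells. All MFAP5 arrays were lower than all control arrays in these 3 sets, and control replicate 2 came nearest to them in the Fanconi genes. Over all genes tested the deviations were between -0.01 and 0.01.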

How the data were processed

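Messenger RNA of 6 OVCA432 samples (3 MFAP5, 3 control) was measured on 1 array each; titles gave group and number. The deposited values are MAS5 signals, an intensity on a linear scale for each probe set; MAS5 is named in the submitters' processing notes, its version is not given in the sources used here, and no detection calls were used. The 2% trimmed mean was 500.1 on the array of control replicate 1 and was not recorded for the other arrays. The values were taken as already scaled to a common target, and no scaling was added. With such scaling, a shift common to most genes would not show. Of 54675 probe sets, 62 controls were left out. Log2 signals of the 27307 probe sets with a mean at or above the median (5.75, a signal of 53.7) were fitted with limma 3.58.1 in R 4.3.3 (lmFit, eBayes with an intensity trend; 4 residual and 6.15 prior degrees of freedom), and p-values were adjusted over all of them. Genes were named from the platform annotation, in which 41091 probe sets carry 1 symbol. The fit was tested on simulated data.

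Members, lists and the naming rule were chosen with earlier results of these data known. The rule gave signals by array for the 12 called members with the largest change and 9 fixed genes where measured, and both values where probe sets of a gene differed in call; RMI2, RAD50, RAD51AP1 and XPC were added after their values were seen. No 2 arrays held identical values. The labels call the samples independent. Alternatives covered scaling, 50 added to each signal, the filter, the probe set, the trend, a replicate block and the removal of each sample; centring on 18 hybridisation controls and leaving out _x_at probe sets were chosen after seeing the data.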

Additional observations from a re-analysis of the deposited data

How the results depend on the processing

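Of the 15 called genes, 6 kept call and direction under all 16 alternatives, and of these only NBN had more than 1 tested probe set. The number lower was 24 with centring on array medians and 9 with centring on hybridisation controls (14 as reported), where the share of all genes lower was 28.1% and 6.93% (15.3% as reported), and the number higher was 0 with quantile normalization, either centring, no filter, the 75% quantile of brightness, the replicate block and without _x_at probe sets, and 2 with the mean of all probe sets of a gene (1 as reported). Leaving out 1 sample gave 10 to 14 lower and 0 to 1 higher, where 10.1% to 15.1% of all genes were lower and 10.6% to 14.4% higher. Recombination and Fanconi genes lower numbered 13 with centring on array medians, 8 of 22 above the 75% quantile (22.6% of all genes) and 3 without an intensity trend (9.91% of all genes) or with hybridisation controls (3 to 6 without 1 sample), and those higher 0 in the settings that gave 0 above (0 to 1 without 1 sample). In the mismatch, excision and end-joining arm 1 was higher with the mean of all probe sets (0 to 1 without 1 sample). Other repair genes lower numbered 34 with centring on array medians and 11 with hybridisation controls (13 to 22 without 1 sample), and higher 0 with either centring, no filter, the mean of all probe sets or no trend, and 3 with the replicate block (0 to 1 without 1 sample). Deviations of same-numbered samples from their group means correlated at 0.0887, -0.00715 and 0.166, and those of differently numbered samples at -0.18 to 0.10. Whether same-numbered samples were paired was not tested. With the replicate block, 15 members were lower, where 18.0% of all genes were. In that setting 14 of the 15 calls stayed and that of XRCC2 was lost (limma adjusted p = 0.0562). The difference of arm medians ran from -0.13 to 0.067 without 1 sample. Signs turned as follows. With the mean of all probe sets, BARD1 was 0.061, RAD50 0.033, FANCM -0.12, MSH6 0.0035, LIG3 -0.11 and ERCC1 0.012. With quantile normalization, FANCM was -0.10 and MSH6 0.0071; with centring on array medians, FANCM was -0.14, LIG3 -0.072 and PRKDC -0.061; with hybridisation controls, FANCM was -0.059. Without _x_at probe sets, ATM was 0.23 and XRCC4 0.18. Without 1 sample, the ranges were -0.081 to 0.0092 for RAD51C, -0.13 to 0.12 for FANCL, -0.16 to 0.14 for FANCM, -0.066 to 0.027 for UBE2T, -0.070 to 0.043 for MSH6, -0.0026 to 0.14 for LIG3 and -0.042 to 0.24 for PRKDC. Signal near the Bacillus controls limits the 4 genes under 200. Causes were not tested.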
